A study of Mus musculus with 12 samples.

Results

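The glycolytic enzymes described here are 10 genes of the pathway from glucose to lactate: the hexokinases Hk1 and Hk2, the isomerase Gpi1, the phosphofructokinases Pfkl and Pfkp, aldolase A (Aldoa), phosphoglycerate kinase (Pgk1), phosphoglycerate mutase (Pgam1), the muscle-type pyruvate kinase (Pkm) and lactate dehydrogenase A (Ldha). They were taken as a named set, and 9 of the 10 were measured by at least 1 array probe set annotated to that gene alone, among 18194 genes measured in this way. Gpi1 was not analysed here, because no probe set carried its symbol alone. The 9 genes had 20 probe sets, and for each gene the probe set with the highest mean over all arrays is reported as the lead.

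RNA came from cultured mouse adipocytes of 2 lines, with 3 arrays labelled as biological replicates in each of 4 groups. ST2 is a marrow-derived stromal line, labelled strain BC8, and was harvested at day 4 of differentiation after infection with the pMSCV retroviral vector, empty in the control group and carrying steroid receptor RNA activator in the SRA group. SRA is a non-coding RNA that acts as a coactivator of nuclear receptors, and the transgene was a human SRA sequence. 3T3-L1 is a fibroblast-like preadipocyte line, labelled Swiss albino, and was harvested at day 8 with a pSuperior retrovirus expressing a control hairpin (shControl, titled empty vector in the sample names) or a hairpin against mouse SRA (shSRA). All cells had received the MDIT cocktail, made of insulin (0.167 µM), troglitazone (5 µM), dexamethasone (1 µM) and 3-isobutyl-1-methylxanthine (0.5 mM), and all carried a retroviral vector. Line, day of harvest, vector and culture medium changed together between ST2 and 3T3-L1 and cannot be told apart.

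Glycolysis splits glucose into pyruvate in the cytosol and yields ATP without oxygen. Hexokinase traps glucose in the cell, phosphofructokinase commits it to the pathway, pyruvate kinase makes pyruvate, and lactate dehydrogenase turns pyruvate into lactate and regenerates NAD+. In adipocytes the pathway also supplies the glycerol backbone of triglyceride and the carbon for fatty acid synthesis, and many of its genes are targets of the hypoxia-inducible factor HIF-1, which binds the core letters ACGTG or GCGTG.

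All values are log2 expression values as deposited, so that a difference of 1 is a doubling of the array signal. A difference was called where the adjusted p of limma's moderated test, with Benjamini-Hochberg adjustment over 19068 probe sets that varied enough to be tested, was under 0.05. Of the 9 lead probe sets 7 passed that variance filter, and those of Aldoa and Pgk1 did not, so these are given by their values with no p. The highest value of any probe set was 15.14, and Aldoa and Pgk1 stood between 13.74 and 14.51 on all 12 arrays. Fewer adipocytes in a dish and less RNA per adipocyte cannot be told apart in bulk RNA.

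With the hairpin mouse Sra1 fell from 11.79 to 9.43 (log2 fold change -2.36, SE 0.18, limma adjusted p = 5.58e-07), while Sra1 was 11.24 in the SRA group and 11.01 in ST2 control, and a mouse probe set does not check the human transgene. One array stood apart: ST2 control replicate 2 lay below its group mean by a median of 0.43 over 14314 bright probe sets (mean log2 value of at least 8), and was below its group mean for 9 of 9 members. Values that move without it are given beside the result. The 8 measured adipocyte markers averaged 11.81 to 12.30 in ST2 control, 12.30 to 12.36 with SRA, 12.65 to 12.83 in shControl and 12.73 to 12.85 in shSRA, as mean log2 values per array. Among them Lep, the adipocyte hormone leptin, was dim in every group (means of 4.48 to 4.64). Macrophage and muscle markers averaged between 5.95 and 6.51 on all arrays, although single markers differed. Of 3 tested macrophage and blood cell markers 2 were called lower in control 3T3-L1 than in control ST2. Of 2 tested muscle markers 1 was called higher and 1 lower there, and 1 was called higher with SRA.

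**Figure D1:**
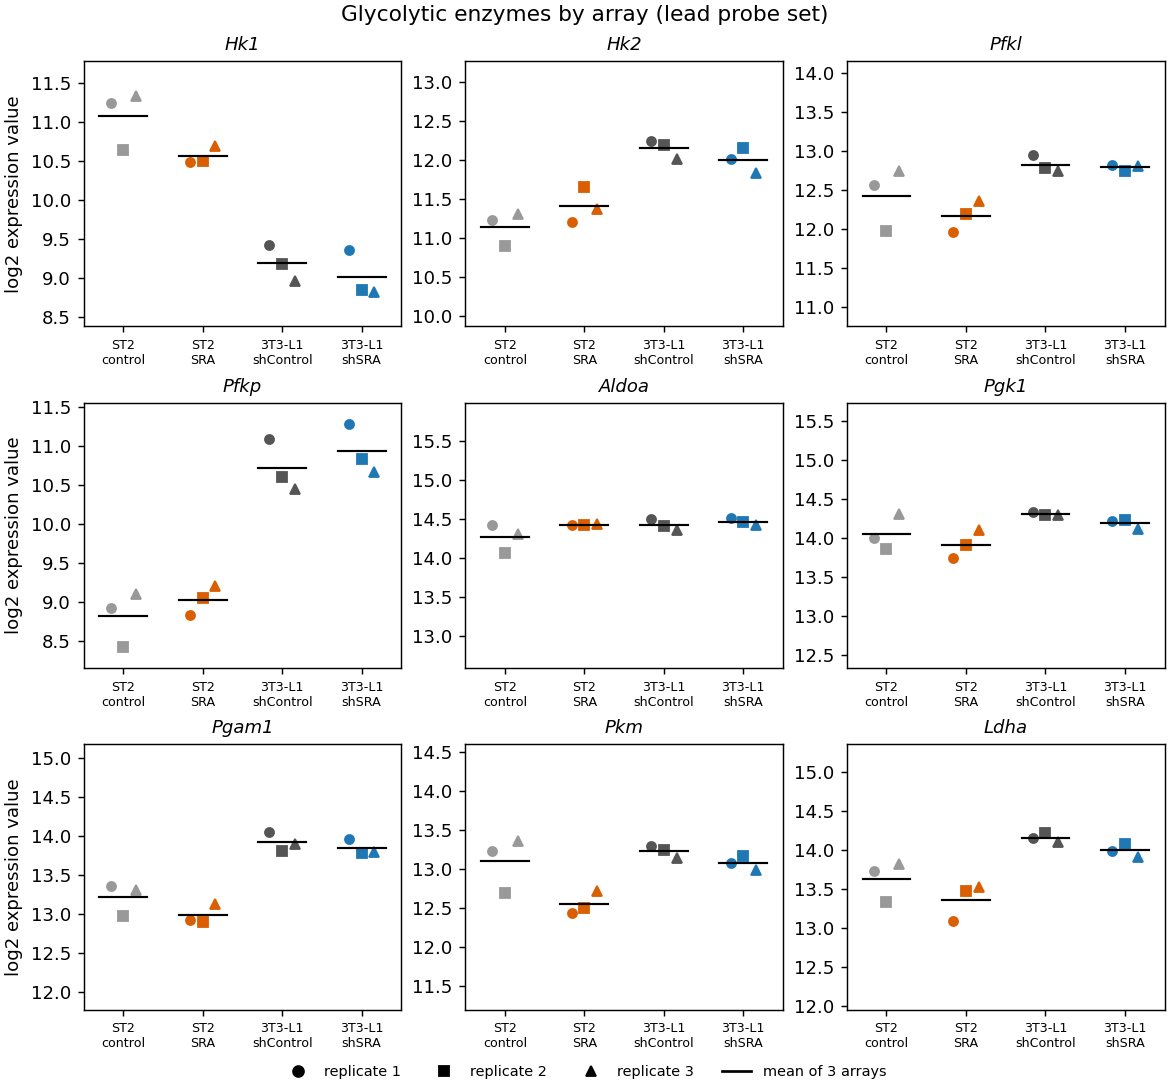
Log2 expression value of the lead probe set of 9 glycolytic enzymes on each of 12 arrays, by group, with marker shapes for replicates and a line at the mean of 3 arrays. Every panel spans the same log2 range, and the panels of Hk1 and Pfkp show the widest gaps between ST2 and 3T3-L1.

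The lines differed in opposite directions for the 2 hexokinases, and in 1 direction for the enzymes further down that were called. In control 3T3-L1 adipocytes, set against control ST2 adipocytes, 4 of the 7 tested members were higher (Pfkp, Hk2, Pgam1 and Ldha) and 1 was lower (Hk1). Over all tested probe sets 37.4% were called higher and 26.2% lower in this comparison, so 5 called among 7 is near the background. The median difference of the 9 measured members was 0.40, against 0.02 over all 18194 measured genes. Bright probe sets, among which all measured members fall, had a median difference of 0.11. Without ST2 control replicate 2 that median was -0.01, and Pfkl, which holds the middle value of the members, was at 0.17.

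Hk1, the hexokinase found in most tissues and in brain and red cells above all, was higher in ST2. It read 11.24, 10.64 and 11.33 in ST2 control and 10.48, 10.50 and 10.69 in the SRA group. In 3T3-L1 it read 9.42, 9.18 and 8.96 with shControl and 9.35, 8.84 and 8.82 with shSRA, so that no 3T3-L1 array reached the lowest ST2 array. Control 3T3-L1 was lower by 3.69-fold (log2 fold change -1.88, SE 0.20, limma adjusted p = 1.42e-07). The second Hk1 probe set, which was also tested, gave -1.99 (limma adjusted p = 3.65e-07).

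Hk2, the insulin-responsive hexokinase of muscle and fat, went the other way. Its values were 11.24, 10.90 and 11.31 in ST2 control and 11.21, 11.65 and 11.38 with SRA. With shControl they were 12.24, 12.20 and 12.01, and with shSRA 12.01, 12.16 and 11.84. All 6 arrays of 3T3-L1 lay above all 6 of ST2. The difference between the control groups was 2.00-fold (log2 fold change 1.00, SE 0.17, limma adjusted p = 5.47e-05). Hk2 had 1 probe set.

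The sequences upstream of the RefSeq starts of both hexokinases are printed because these genes differed in opposite directions. Each is the 250 bases before the start, 5′ to 3′ in the sense of the gene. Capitals mark ACGTG or GCGTG on either strand. Hk1 has 2 listed starts in this table, the second of them downstream.
Hk1 first start (GRCm38.p6, chr10:62379909-62380158, minus strand): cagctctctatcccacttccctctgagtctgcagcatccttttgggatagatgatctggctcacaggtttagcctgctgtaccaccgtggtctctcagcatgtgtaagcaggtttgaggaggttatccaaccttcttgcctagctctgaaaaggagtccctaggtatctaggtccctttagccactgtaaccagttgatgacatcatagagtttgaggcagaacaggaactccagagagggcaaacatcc
Hk1 second start (GRCm38.p6, chr10:62340422-62340671, minus strand): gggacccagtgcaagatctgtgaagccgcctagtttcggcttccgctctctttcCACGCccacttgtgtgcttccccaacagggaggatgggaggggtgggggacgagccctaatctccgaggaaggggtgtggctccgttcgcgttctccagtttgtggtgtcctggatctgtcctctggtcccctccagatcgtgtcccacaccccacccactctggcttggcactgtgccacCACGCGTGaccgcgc
Hk2 (GRCm38.p6, chr6:82774455-82774704, minus strand): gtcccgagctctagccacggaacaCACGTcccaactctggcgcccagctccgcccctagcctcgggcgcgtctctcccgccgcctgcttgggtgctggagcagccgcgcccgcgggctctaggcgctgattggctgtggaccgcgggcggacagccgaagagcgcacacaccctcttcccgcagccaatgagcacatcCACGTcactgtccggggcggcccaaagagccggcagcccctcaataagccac
Positions are counted back from the start, which follows position -1, and give the first base of a match. The Hk2 window held ACGTG at -226 and -52 and the GC box GGGCGG at 3 positions. The window of the first Hk1 start held none of the searched motifs, and that of the second held GCGTG at -196, -15 and -12 and no ACGTG. Across the 32851 windows listed by RefSeq, 16.6% held ACGTG and 28.2% held GCGTG. These matches are letters in a window and were not tested as binding sites.

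Pfkp, the platelet-type phosphofructokinase, showed the widest gap of the members that were higher in 3T3-L1. It read 8.92, 8.43 and 9.11 in ST2 control, 8.84, 9.05 and 9.21 with SRA, 11.09, 10.61 and 10.45 with shControl and 11.29, 10.84 and 10.67 with shSRA. The lines were apart by more than 1 log2 unit at the nearest arrays, and the difference between the control groups was 3.72-fold (log2 fold change 1.90, SE 0.21, limma adjusted p = 2.89e-07). The other probe sets of Pfkp gave 1.93 (limma adjusted p = 9.37e-07) and, at a much dimmer probe set, 0.97 (limma adjusted p = 0.0016).

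Pfkl, the liver-type phosphofructokinase, differed less. Its values were 12.57, 11.97 and 12.74 in ST2 control and 12.95, 12.78 and 12.74 with shControl, with means of 12.43 ± 0.40 and 12.82 ± 0.11 (SD, n = 3). The brightest ST2 control array was level with the dimmest shControl array to the second decimal. The log2 difference of 0.40 (SE 0.19) did not pass at the lead probe set (limma adjusted p = 0.0653) and passed at the second (0.44, limma adjusted p = 0.0423). It was 0.17 without ST2 control replicate 2 (limma adjusted p = 0.274). Its remaining probe set, dim at 7.40 to 7.68 in the group means, gave 0.28 and was not called.

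The Pfkp window is shown beside the hexokinases because Pfkp and Hk2 were the members highest over ST2, again with ACGTG and GCGTG in capitals.
Pfkp (GRCm38.p6, chr13:6648772-6649021, minus strand): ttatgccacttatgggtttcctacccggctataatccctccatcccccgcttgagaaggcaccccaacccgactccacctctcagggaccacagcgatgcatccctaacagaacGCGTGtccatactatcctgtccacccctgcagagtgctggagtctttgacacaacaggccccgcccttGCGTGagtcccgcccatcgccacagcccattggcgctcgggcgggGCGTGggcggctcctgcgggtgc
It held GCGTG at -136, -68 and -23, no ACGTG, and the GC box at 4 positions. GGGCGG was found in 32.7% of all windows. Pfkl, which did not pass at its lead probe set, held GCGTG at -99.

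The enzymes between phosphofructokinase and pyruvate kinase were bright in all groups. Aldoa, which cleaves fructose-1,6-bisphosphate, ranged from 14.07 to 14.43 in ST2 control and from 14.36 to 14.51 with shControl, a difference of 0.15 (SE 0.11) with overlapping groups. Its 5 probe sets differed by 0.07 to 0.28 between the control groups and all fell under the variance filter. Pgk1, which makes the first ATP of the pathway, ranged from 13.87 to 14.31 in ST2 control and from 14.30 to 14.33 with shControl, a difference of 0.25 (SE 0.13), and its other 2 probe sets gave 0.22 and 0.26. Differences this small at values near the top of the table were not tested, and all 5 probe sets of Aldoa and 2 of the 3 of Pgk1 are of a class that may also bind related transcripts.

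Pgam1, which moves the phosphate of phosphoglycerate, was higher in 3T3-L1. It read 13.36, 12.97 and 13.31 in ST2 control and 14.05, 13.80 and 13.90 with shControl. The groups did not overlap, and the difference was 1.63-fold (log2 fold change 0.70, SE 0.16, limma adjusted p = 0.000918). The SRA group read 12.92, 12.90 and 13.12 and the shSRA group 13.95, 13.77 and 13.79, so that the lines stayed apart on all 12 arrays.

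Pkm, which catalyses the last ATP-yielding step, did not differ detectably between the control groups. It read 13.24, 12.70 and 13.37 in ST2 control and 13.30, 13.26 and 13.14 with shControl. The ST2 control arrays lay on both sides of the shControl arrays, and the difference was 0.13 with a 95% interval from -0.23 to 0.50 (limma adjusted p = 0.505). Without ST2 control replicate 2 it was -0.07 (limma adjusted p = 0.625).

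Ldha, which reduces pyruvate to lactate, was modestly higher in 3T3-L1. Its values were 13.73, 13.34 and 13.82 in ST2 control, 13.10, 13.48 and 13.53 with SRA, 14.16, 14.22 and 14.10 with shControl and 14.00, 14.09 and 13.92 with shSRA. No ST2 array reached a 3T3-L1 array. The difference between the control groups was 1.44-fold (log2 fold change 0.53, SE 0.17, limma adjusted p = 0.0108), and 0.39 without ST2 control replicate 2 (limma adjusted p = 0.024).

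The Ldha window at its upstream start is printed because it held the most ACGTG matches of any member window, with the same capitals as above.
Ldha upstream start (GRCm38.p6, chr7:46845554-46845803, plus strand): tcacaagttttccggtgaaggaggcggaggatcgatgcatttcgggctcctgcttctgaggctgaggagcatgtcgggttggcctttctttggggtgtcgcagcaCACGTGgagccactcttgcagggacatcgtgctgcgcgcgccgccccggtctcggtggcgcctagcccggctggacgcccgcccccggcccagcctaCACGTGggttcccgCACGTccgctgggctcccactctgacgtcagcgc
It held ACGTG at 5 positions counting both strands, of which 4 come from 2 palindromes CACGTG at -145 and -48 (an E-box, found in 6.02% of all windows), and the fifth lies at -34. Of the 10 members 6 had ACGTG in at least 1 window (Hk2, Aldoa, Pgk1, Pgam1, Pkm and Ldha), where 18.5% of the 27025 genes in the table did. The set included members that were higher in 3T3-L1, a member that was not called (Pkm) and members that were not tested.

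**Figure D2:**
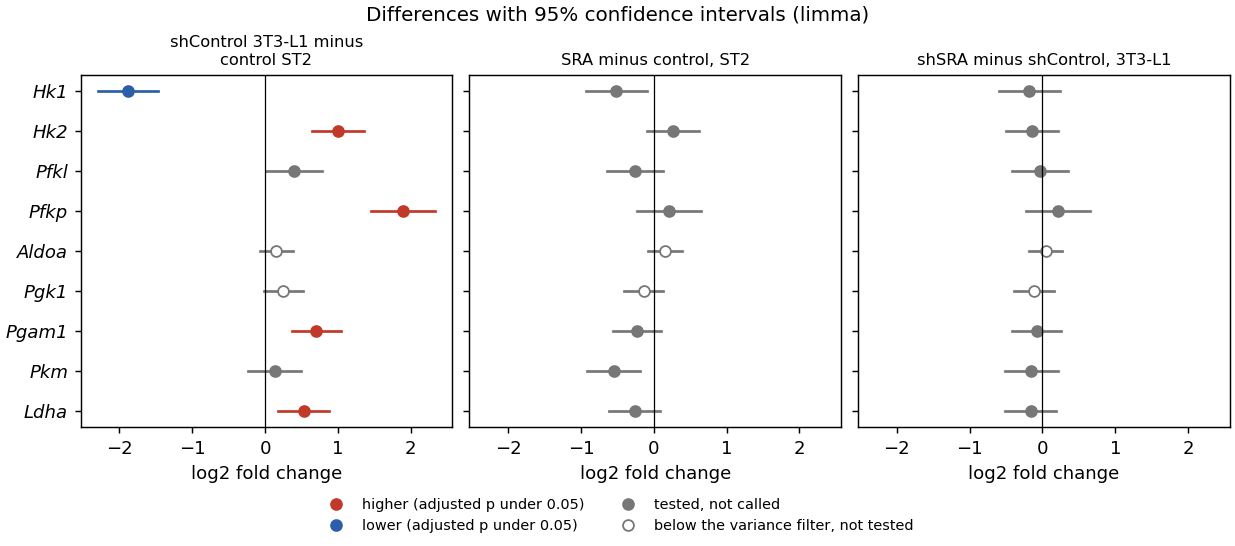
Log2 fold change of each member's lead probe set with its 95% confidence interval from limma, for control 3T3-L1 minus control ST2, the SRA group minus the empty vector, and shSRA minus shControl. Red and blue points passed at an adjusted p under 0.05, filled grey points were tested and did not pass, and open points fell under the variance filter; coloured points appear in the line comparison only.

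When the groups with altered SRA were set against each other instead (shSRA 3T3-L1 minus SRA ST2), all 7 tested members were called, 6 higher and Hk1 lower. The share of all tested probe sets called in this comparison was not counted, so 7 of 7 has no background of its own. Between the controls that share was 37.4% higher and 26.2% lower. Without ST2 control replicate 2 the 5 called members were called again, Hk1 at -2.10, Hk2 at 0.88, Pfkp at 1.70, Pgam1 at 0.58 and Ldha at 0.39. With the altered groups Hk1 differed by -1.55, Pfkp by 1.90, Pgam1 by 0.86 and Ldha by 0.63. Pfkl at 0.62 (limma adjusted p = 0.00861) and Pkm at 0.53 (limma adjusted p = 0.0169) passed here and not between the controls. The smallest difference with an unchanged call was that of Hk2, at 0.59 (limma adjusted p = 0.00723), against 1.00 between the controls.

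Related genes were described by fixed lists. Each list count between the controls stands beside shares of 37.4% higher and 26.2% lower over all tested probe sets. Among 15 measured genes of other glycolytic enzymes, 8 were tested, of which 3 were higher in 3T3-L1 and 2 lower. The higher ones were Pfkm, the muscle-type phosphofructokinase (log2 fold change 1.06, limma adjusted p = 1.26e-05), Tpi1, triosephosphate isomerase (0.84, limma adjusted p = 0.000362), and Bpgm, bisphosphoglycerate mutase (0.44, limma adjusted p = 0.0179). Adpgk, the ADP-dependent glucokinase, was lower by a log2 fold change of -1.56 (limma adjusted p = 8.86e-07), as was the muscle enolase Eno3 at -0.75 (limma adjusted p = 0.00125). Gapdh, under the variance filter, averaged 14.69 in ST2 control and 14.88 with shControl. Ldhb, the other main subunit of lactate dehydrogenase, averaged 11.60 and 11.36 and was not called. Eno1 was not analysed here.

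Glucose transporters held a larger difference than any member. Slc2a4, the insulin-responsive glucose transporter GLUT4, averaged 10.04 in ST2 control and 12.85 with shControl (log2 fold change 2.81, limma adjusted p = 1.47e-11). Slc2a1, the basal glucose transporter GLUT1, differed by 1.09 (limma adjusted p = 0.000478). Slc2a10 at -1.60 and the monocarboxylate transporter Slc16a1 at -0.94 were lower, so the transport list held 2 higher and 2 lower of 6 tested. Slc16a3, the lactate exporter MCT4, was dim at 6.09 and 6.27 and was not called.

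Among genes that control flux, 4 of 9 tested were higher and none was lower at the lead probe sets. Without ST2 control replicate 2 these counts became 3 higher and 4 lower. They were led by Txnip at 2.86 (limma adjusted p = 1.54e-10), an inhibitor of glucose uptake, by Pfkfb4 at 0.88, which sets the level of a phosphofructokinase activator, and by Mlxipl at 0.75, the carbohydrate-responsive factor ChREBP. Hif1a itself averaged 11.13 in both control groups, with a difference of 0.00 (SE 0.17).

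Of 11 tested genes for pyruvate entry into mitochondria 7 were higher and 3 lower, and 5 higher and 3 lower without ST2 control replicate 2. The phosphatase Pdp2, which activates pyruvate dehydrogenase, was higher by 1.91, and the kinase Pdk1, which inactivates it and is a known HIF-1 target, by 1.85 (limma adjusted p = 7.73e-08). Pdk4, another such kinase, was lower at -1.60 (limma adjusted p = 5.09e-06). The kinases of this list therefore differed in both directions.

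The side branches of the pathway differed less evenly. In glycogen metabolism 8 of 9 tested genes were higher, led by the phosphatase subunit Ppp1r3c at 2.25, the phosphorylase Pygb at 1.42 and the phosphorylase kinase subunit Phkb at 1.36, with a list median of 0.67 (7 higher without ST2 control replicate 2). In the pentose phosphate pathway all 3 tested genes were higher, Pgls by 1.03, Tkt by 0.73 and Taldo1 by 0.56. In glyceroneogenesis and gluconeogenesis 1 of 8 was higher, Pck1 at 4.41 (limma adjusted p = 9.38e-14), the enzyme that makes phosphoenolpyruvate from oxaloacetate, and none was lower (1 without ST2 control replicate 2).

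The list of hypoxia-inducible genes outside glycolysis had the largest median of the 8 lists, 1.03 over 17 measured genes. Of 16 tested, 12 were higher and 2 lower, and 11 higher and 1 lower without ST2 control replicate 2. The number lower ranged from 0 to 2 over 21 alternatives. Egln3, the HIF prolyl hydroxylase PHD3, read 5.90, 6.15 and 5.06 in ST2 control and 12.41, 12.49 and 11.87 with shControl (log2 fold change 6.56, SE 0.28, limma adjusted p = 1.74e-13). Car9, a carbonic anhydrase at the cell surface, read 6.47, 6.05 and 6.36 in ST2 control and 9.84, 8.52 and 8.93 with shControl (2.80, limma adjusted p = 9.28e-09), and Ankrd37 differed by the same 2.80. Ddit4 and Adm were lower, by log2 fold changes of -0.84 (limma adjusted p = 0.036) and -0.91 (limma adjusted p = 0.00384). Adm read 9.60, 8.66 and 9.73 in ST2 control and 8.27, 8.81 and 8.19 with shControl, so its groups overlapped through ST2 control replicate 2. The 12 higher genes stand beside 4 higher members on the same arrays, and no test of a link was made.

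**Figure D3:**
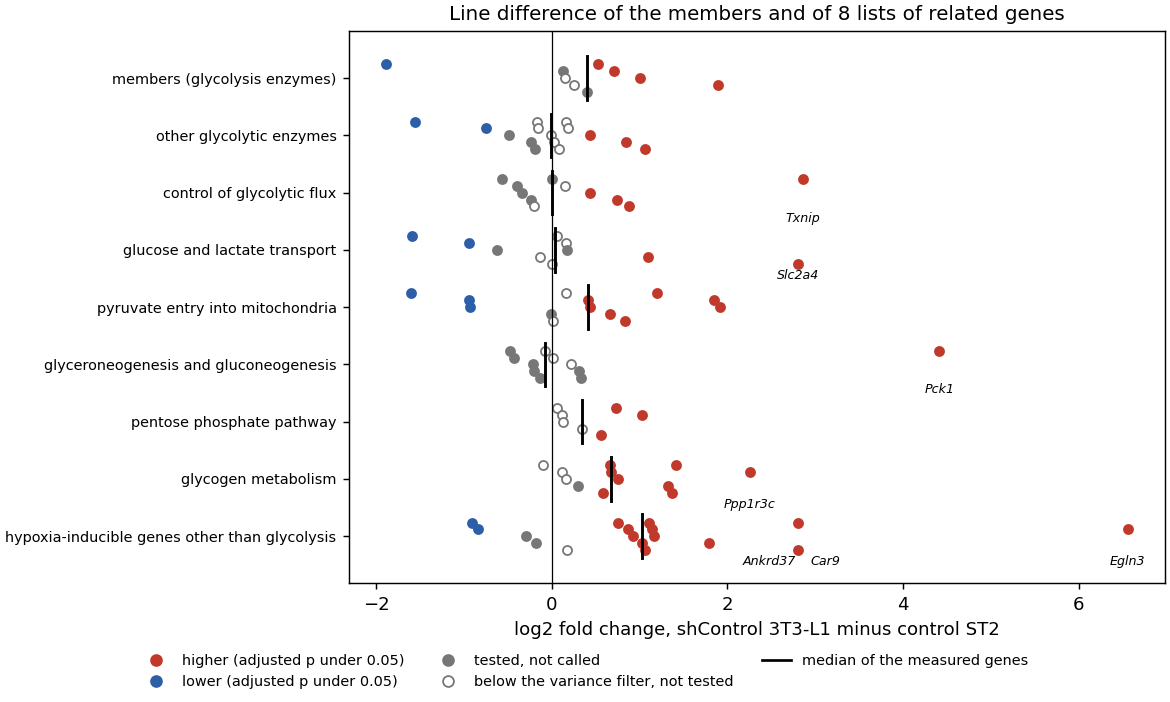
Log2 fold change between control 3T3-L1 and control ST2 for the 9 measured members and the measured genes of 8 lists, 1 point per gene at its lead probe set, with a black bar at each list's median. Colours mark calls as in the plot of member differences; the hypoxia list has the largest median (1.03) and Egln3 the largest single difference (6.56).

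Proliferation markers moved with the line: 7 of 7 were lower in control 3T3-L1, with a median difference of -2.59, and averaged 8.08 to 8.92 in ST2 control against 5.65 to 5.94 with shControl. Fibroblast markers differed in both directions, with 5 higher and 1 lower of 7 tested, and averaged 8.38 to 8.57 against 10.17 to 10.53. Their part in the differences of the glycolytic enzymes was not tested.

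SRA overexpression in ST2 adipocytes was set against the empty vector to ask whether the extra SRA changed these enzymes. None of the 7 tested members was called by limma, and 2 had an unadjusted p under 0.05, Pkm and Hk1, both with lower values in the SRA group. Over all tested probe sets 2.33% were called higher and 5.65% lower. The 9 measured members ranged from -0.55 to 0.27 with a median of -0.23, where the median of all measured genes was 0.06.

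Pkm read 12.44, 12.50 and 12.72 with SRA, against 13.24, 12.70 and 13.37 in ST2 control. The groups overlapped only through control replicate 2, which lay under the highest SRA array. The log2 difference was -0.55 (SE 0.18, 95% interval -0.91 to -0.18, limma adjusted p = 0.0596). For Hk1, with the values given above, it was -0.51 (SE 0.20, 95% interval -0.93 to -0.10, limma adjusted p = 0.129), and its second probe set gave -0.61 (limma adjusted p = 0.111).

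Without ST2 control replicate 2, the array that stood apart, the count became 3 of 7, all lower with SRA. Pkm was then -0.75 (limma adjusted p = 0.00114), Hk1 -0.73 (limma adjusted p = 0.0138) and Pfkl -0.49 (limma adjusted p = 0.0295). Centring the arrays on their bright probe sets also called 3, with Pkm at -0.62, Hk1 at -0.59 and Pgam1 at -0.31 (limma adjusted p = 0.0421). No alternative called a member higher with SRA. The shares of all tested probe sets called without that array or after centring were not counted, so these counts have no background beside them.

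**Figure D4:**
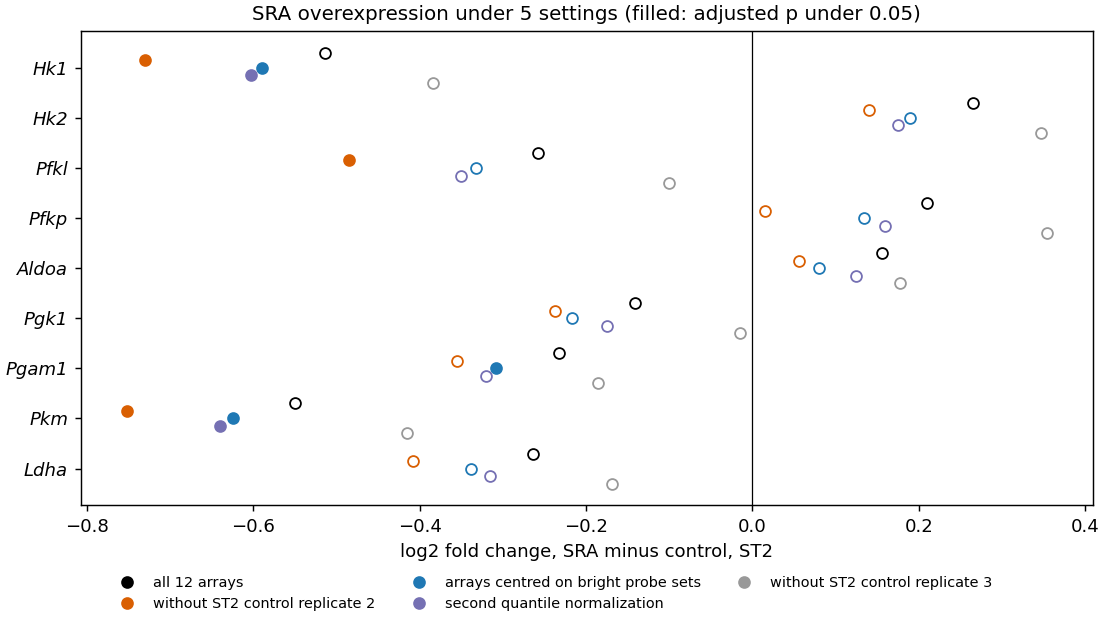
Log2 fold change of the 9 members for SRA minus control in ST2 with all 12 arrays and under 4 other settings, filled where the limma adjusted p was under 0.05. With all arrays no point is filled, and without ST2 control replicate 2 those of Hk1, Pfkl and Pkm are.

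The remaining members gave values on both sides of 0. Hk2 differed by 0.27 (SE 0.17) and Pfkp by 0.21 (SE 0.21), while Ldha differed by -0.26 (SE 0.17), Pfkl by -0.26 (SE 0.19) and Pgam1 by -0.23 (SE 0.16). Hk1 and Hk2 thus had opposite signs here as between the lines, but this comparison and the line comparison share the ST2 control arrays. Of the untested members Aldoa differed by 0.16 and Pgk1 by -0.14. Without ST2 control replicate 2 Hk2 was 0.14, Pfkp 0.0149, Ldha -0.41 and Pgam1 -0.36, and none of these was called. Aldoa was then 0.0554 and Pgk1 -0.24, so the positive values lay closer to 0 and the negative ones further from it.

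Some genes around the pathway were called higher with SRA. Slc2a4 read 10.19, 10.01 and 9.92 in ST2 control and 11.04, 11.41 and 10.90 with SRA, a rise of 1.08 without overlap (SE 0.16, limma adjusted p = 0.000176). Txnip rose by 1.06 (limma adjusted p = 0.00106), and Gpd1, which makes glycerol-3-phosphate from a glycolytic intermediate, by 0.80 (limma adjusted p = 0.0112). Pfkfb3, a producer of the phosphofructokinase activator, rose by 0.81 (limma adjusted p = 0.0387) and Slc16a1 by 0.58 (limma adjusted p = 0.0359). With no variance filter Pfkfb3 did not pass (limma adjusted p = 0.093), and the other genes named here did. With each array left out, the flux and transport lists held 1 to 2 higher genes each. The glyceroneogenesis list, which holds Gpd1, then held 0 to 1.

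In the other glycolytic enzymes 2 of 8 tested genes fell and none rose. Ldhb read 11.80, 11.23 and 11.76 in ST2 control and 10.73, 10.96 and 11.13 with SRA (log2 fold change -0.66, SE 0.19, limma adjusted p = 0.0392). With no variance filter Ldhb did not pass (limma adjusted p = 0.0629), and its lead probe set is of the class that may also bind related transcripts. Eno3 changed by -0.64 (limma adjusted p = 0.0281). This count ranged from 0 to 4 over 21 alternatives and was 0 without ST2 control replicate 1, without ST2 control replicate 3, without ST2 SRA replicate 1 and without ST2 SRA replicate 2.

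The flux and transport lists had 2 genes higher each with SRA, and 1 each without ST2 control replicate 2. No gene of the pyruvate, pentose phosphate, glycogen or hypoxia lists was called by limma, with 4, 1, 3 and 4 of them at an unadjusted p under 0.05. Without ST2 control replicate 2, 2 pyruvate genes, 1 hypoxia gene and 1 flux gene were called lower. Over 21 alternatives the pyruvate list held up to 6 higher and up to 3 lower, the hypoxia list up to 1 higher and 4 lower, the glycogen list up to 3 higher and 1 lower, and the pentose phosphate list up to 1 higher. Hif1a differed by -0.38 (SE 0.17, limma adjusted p = 0.198).

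Proliferation markers moved with SRA as well, with 7 of 7 lower, a median difference of -1.82 and averages of 6.35 to 7.11 against 8.08 to 8.92. Of 7 tested fibroblast markers 4 were lower, with averages of 7.65 to 7.87 against 8.38 to 8.57. Their part in the values of the glycolytic enzymes was not tested.

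SRA knockdown in 3T3-L1 adipocytes left no called change among the members. None of 7 passed by limma, and none had an unadjusted p under 0.05. The background was thin, with 0.0315% of tested probe sets called higher and 0.042% lower. The paper reports many more genes changed by this knockdown from the same arrays, and the reason for that gap was not tested.

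The 9 measured members ranged from -0.18 to 0.22 with a median of -0.12, against -0.01 over all measured genes. Hk1 differed by -0.18 (95% interval -0.60 to 0.24), Ldha by -0.16 (-0.51 to 0.19), Pkm by -0.15 (-0.52 to 0.21), Hk2 by -0.15 (-0.50 to 0.21), Pgam1 by -0.08 (-0.41 to 0.25), Pfkl by -0.03 (-0.42 to 0.35) and Pfkp by 0.22 (-0.22 to 0.66), all with a limma adjusted p = 1.00. These intervals are from the fit without pairing, and each spans 0. Within the 3 pairs of equal replicate number, 6 of the 7 tested members had differences of 1 sign, all but Pfkl, against 34.9% of all tested probe sets. The members were read on the same 3 pairs of arrays and can shift together. They are not 7 separate observations, and no effect of the knockdown is read from this share. Pfkp was higher with shSRA by 0.20, 0.23 and 0.22, and Ldha differed by -0.17, -0.14 and -0.18. With the replicate block the interval of Pfkp ran from -0.10 to 0.54 and that of Ldha from -0.48 to 0.16, and none of 7 passed (limma adjusted p = 1.00, none at an unadjusted p under 0.05). Pgk1 and Ldha had groups that did not overlap, with the shSRA arrays below the shControl arrays, at differences of -0.12 and -0.16. The share of all probe sets without overlap in this comparison was not counted, so no effect of the knockdown is read from this.

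No gene of the 8 lists was called with knockdown either. Slc2a4 averaged 12.85 with shControl and 12.87 with shSRA and Ldhb 11.36 and 11.75 (SE of the difference 0.19).

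The SRA changes were unlike, a hairpin against mouse SRA in 3T3-L1 at day 8 and a human transgene in ST2 at day 4. Line, day and kind of SRA change cannot be told apart when their effects are compared. Whether these effects differed was asked by the difference of the differences, shControl minus shSRA in 3T3-L1 less SRA minus control in ST2. It was 0.70 for Pkm (SE 0.25, limma adjusted p = 0.144), 0.69 for Hk1 (SE 0.28, limma adjusted p = 0.221), 0.43 for Ldha, 0.31 for Pgam1, 0.29 for Pfkl, -0.12 for Hk2 and -0.43 for Pfkp. None of 7 was called by limma (2 at an unadjusted p under 0.05, Pkm and Hk1), where 3.69% of all tested probe sets were. Without ST2 control replicate 2 it called 2.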

How the data were processed

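The 12 samples were hybridised by the authors to Affymetrix mouse genome arrays from 5 µg of total RNA each. The deposited values are log2 expression values of 45101 probe sets, made by the authors with robust multi-array average (RMA), which corrects background, normalizes quantiles and summarizes probes. The processing notes name affy, RMA and limma, with no version given in the sources used here.

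Genes were named by the platform annotation, where 34958 probe sets had 1 symbol, 932 several and 9211 none. From the deposited values, R 4.3.3 with limma 3.58.1 fitted 1 model of 4 groups after a filter on variance over 0.05, which left 19068 probe sets, as the study's methods describe. The fit was tested on simulated data with independent noise, which held no array-wide shift and no pairing of replicates. The number of arrays limits the precision, and where the 3 arrays of a group share a culture history p-values measure the spread between these samples only. Replicate numbers paired the 3T3-L1 samples (correlations of deviations 0.59, 0.59 and 0.38) and not all of the ST2 samples (lowest 0.04).

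The members and the gene lists were chosen with earlier results of these data known. Named genes were all members, the called genes of each list without overlap (at most 3 by size) and 9 related genes fixed by name. Bpgm, Eno3, Slc16a1, Ddit4 and Adm in the line comparison and Lep among the markers fell outside this rule and were named after their values were seen. Promoter windows are from RefSeq, GRCm38.p6, and 10 of 10 members matched by symbol. Alternatives covered the filter, probe set, normalization, spread, array weights, replicate block and each array left out.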

Additional observations from a re-analysis of the deposited data

How the results depend on the processing

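Between the lines, the calls of Hk1, Hk2, Pfkp, Pgam1 and Ldha held under all 21 alternatives, and Pfkl was called in 7 of 21. The count of members called with SRA overexpression, 0 with the settings reported, was 1 when the probe sets of a gene were averaged, 1 with limma-trend, 2 with a second quantile normalization, 3 with arrays centred on bright probe sets and 5 with array weights, whose estimate did not converge and gave ST2 control replicate 2 a weight of 0.076 and replicate 3 one of 18.3. With the replicate number as a block it was 2 (Hk1, limma adjusted p = 0.0222, and Pkm, limma adjusted p = 0.013), although the numbers do not pair all of the ST2 samples. Leaving out each array gave 0 to 3, the 3 without ST2 control replicate 2. The difference of the differences called 2 members with the replicate block and 0 to 2 with each array left out. The block changed no knockdown call, and no alternative gave one. A few small values changed sign. Pfkp with SRA was -0.11 with array weights. Pkm between the lines was -0.0254 with a second quantile normalization, -0.13 with array weights and -0.0718 to 0.265 with each array left out. Pfkl with knockdown was -0.0746 to 0.029 with each array left out. The cause of these changes was not tested. The shares of all tested probe sets called under the alternatives were not counted.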
